A study of Homo sapiens with 14 samples.

Results

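The genes described here are 7 of the 11679 genes measured above background in Mel202 uveal melanoma cells: SCRG1, ABCA3, KCNG1, AFMID, CDC42SE1, USF1 and ZCWPW1. They were chosen from the measured values, as genes with large increases under ICG-001 that are not known targets of the stress factor ATF4, and all their annotated probes were taken, 10 in all. The choice used the differences between ICG-001 and DMSO, so these differences are given as a description, without a test. Mel202 is an established human cell line that carries mutations of GNAQ and is wild type for BRAF, and a single line was studied. It was kept in its regular medium with ICG-001 at 3 µM, dissolved in DMSO, for 24 h or 48 h, or with DMSO alone for 24 h or 48 h. Each ICG-001 group had 4 arrays and each DMSO group had 3. In every group 1 pair of arrays carries the same sample number with the letters a and b, and each pair was averaged, which leaves n = 3 for ICG-001 and n = 2 for DMSO at each time. Nothing in the labels tells whether replicates came from separate cultures, so SDs, SEs and p-values may cover technical spread alone. RNA was measured in bulk, so a change in every cell and a larger change in some cells cannot be told apart.

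ICG-001 is a small molecule that binds the coactivator CBP and blocks its contact with β-catenin, the effector of Wnt signalling. ATF4 is a transcription factor made when amino acids are short or proteins misfold, and it switches on genes of amino acid synthesis and transport such as ASNS. The 7 genes belong to no shared pathway. SCRG1 encodes a small secreted protein described as a stimulator of cartilage formation, ABCA3 a lipid transporter of the lamellar bodies of lung type II cells, and KCNG1 a potassium channel subunit that is silent by itself and modifies Kv2 channels. AFMID encodes arylformamidase, which turns N-formylkynurenine into kynurenine in tryptophan breakdown, and CDC42SE1 a small protein that binds the GTPase CDC42. USF1 is a transcription factor of the basic helix-loop-helix leucine zipper class, which binds the E-box and has been tied to pigmentation genes after ultraviolet light, and ZCWPW1 is a histone-mark reader known from meiotic recombination in mice.

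At 24 h the 7 genes, each by its probe with the highest mean, were between 3.04-fold and 7.77-fold higher with ICG-001 than with DMSO, and at 48 h between 3.46-fold and 13.5-fold higher. SCRG1 ranked 2 among the increases of all 22158 probes tested at 24 h and 1 at 48 h. At 24 h 5 of the 7 genes and at 48 h 4 of the 7 stood among the 10 largest increases, and all 7 stood among the 50 largest at both times. After normalization every ICG-001 replicate of all 10 probes lay above every DMSO replicate at both times, which was also true of 22.5% of all tested probes at 24 h and of 23.4% at 48 h. In the deposited signals the arrays of the dimmer AFMID, USF1 and CDC42SE1 probes overlapped at 48 h, with lowest ICG-001 signals of 133.3, 151.7 and 170.4 and highest DMSO signals of 152.8, 167.9 and 172.3. No limit on the size of the change defined the choice. Named probes of comparable size that were not chosen, picked after their values were seen, include GOLIM4 at 24 h (log2 change 2.51), TNFRSF19 (1.99 at 24 h and 2.16 at 48 h), and SPATS1 (2.16), KIF1A (2.10) and FGF9 (2.08) at 48 h. The array annotation used here names only probes of the authors' own table, so probes of other genes, and further probes of these 7, may be present without a name.

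The promoters are shown for SCRG1 and ABCA3, the genes with the largest increases at 48 h, and for AFMID, which starts beside a gene that changed the other way. Each line gives the 250 bases before the gene's start on its own strand, from RefSeq (GRCh38.p14), with every CG dinucleotide in capitals.
SCRG1, chr4:173399117-173399366, minus strand: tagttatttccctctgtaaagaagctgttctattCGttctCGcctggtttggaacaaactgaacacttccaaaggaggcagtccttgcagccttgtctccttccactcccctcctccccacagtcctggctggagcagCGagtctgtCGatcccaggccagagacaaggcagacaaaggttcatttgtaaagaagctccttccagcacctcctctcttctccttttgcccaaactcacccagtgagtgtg
ABCA3, chr16:2340729-2340978, minus strand: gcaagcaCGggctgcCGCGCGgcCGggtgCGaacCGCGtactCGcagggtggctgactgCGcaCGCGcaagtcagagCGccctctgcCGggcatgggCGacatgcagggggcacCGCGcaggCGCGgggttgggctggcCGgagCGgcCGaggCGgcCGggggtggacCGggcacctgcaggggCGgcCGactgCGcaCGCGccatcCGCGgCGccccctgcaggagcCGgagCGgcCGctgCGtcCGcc
AFMID, chr17:78187112-78187361, plus strand: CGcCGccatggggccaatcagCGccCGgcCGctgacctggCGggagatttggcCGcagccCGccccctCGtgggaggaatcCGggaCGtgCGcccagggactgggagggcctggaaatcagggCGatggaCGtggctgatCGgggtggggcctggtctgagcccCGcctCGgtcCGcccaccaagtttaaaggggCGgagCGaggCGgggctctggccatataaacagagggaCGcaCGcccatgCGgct
SCRG1 held 4 CG dinucleotides in these bases, ABCA3 held 38 and AFMID held 24. Over the 300-base window that adds the first 50 transcribed bases, 24.5% of 35116 RefSeq promoter windows had fewer CG dinucleotides than SCRG1 and 94.2% had fewer than ABCA3. Windows were found for 6 of the 7 genes, with 2 each for USF1 and ZCWPW1, 8 in all, and KCNG1 is named only. The 8 windows held 0 matches, on either strand, to TGATGNAA, the core of the element bound by ATF4 (in 3.62% of all windows), to the E-box CACGTG (7.26%), to the CREB element TGACGTCA (1.85%) or to CTTTGAT, the core bound by TCF and LEF factors (2.62%). None of these motifs contains another. The search says only that these letters are not in these windows.

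Values of single arrays are given below as the deposited signal, with the averaged pair first in each group. Normalized values are log2 signals after background correction and quantile normalization. SCRG1 had signals of 1495.4, 1370.6, 1382.3 and 1176.4 on the ICG-001 arrays and 311.1, 289.2 and 276.1 on the DMSO arrays at 24 h. At 48 h they were 1447.3, 1074.8, 932.4 and 888.9 with ICG-001 and 240.5, 188.8 and 202.6 with DMSO. The lowest ICG-001 array was above the highest DMSO array by a wide margin at both times, and SCRG1 was detected on all 14 arrays. Normalized, SCRG1 was at 10.40 ± 0.05 (SD, n = 3) with ICG-001 and 7.44 ± 0.01 (SD, n = 2) with DMSO at 24 h, a log2 change of 2.96 ± 0.13 (SE). At 48 h it was at 10.20 ± 0.11 (SD, n = 3) and 6.45 ± 0.10 (SD, n = 2), a log2 change of 3.75 ± 0.13 (SE). The ICG-001 level was thus slightly lower at 48 h than at 24 h (log2 difference -0.21 ± 0.11 SE), and the larger change at 48 h goes with a lower DMSO level.

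The DMSO arrays enter the changes by which the genes were chosen, so their DMSO levels over time are a description too. SCRG1 was 2.00-fold lower in DMSO at 48 h than at 24 h (log2 change -0.998 ± 0.14 SE, 48 h minus 24 h). The DMSO replicates were at 6.38 and 6.52 at 48 h and at 7.44 and 7.45 at 24 h. In the authors' deposited table the difference was -0.42. The other 9 probes differed by -0.35 to 0.37 between the times in DMSO. Over all tested probes 2 (0.00903%) passed in this comparison with limma, and 1456 (6.57%) had an unadjusted p below 0.05.

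**Figure D1:**
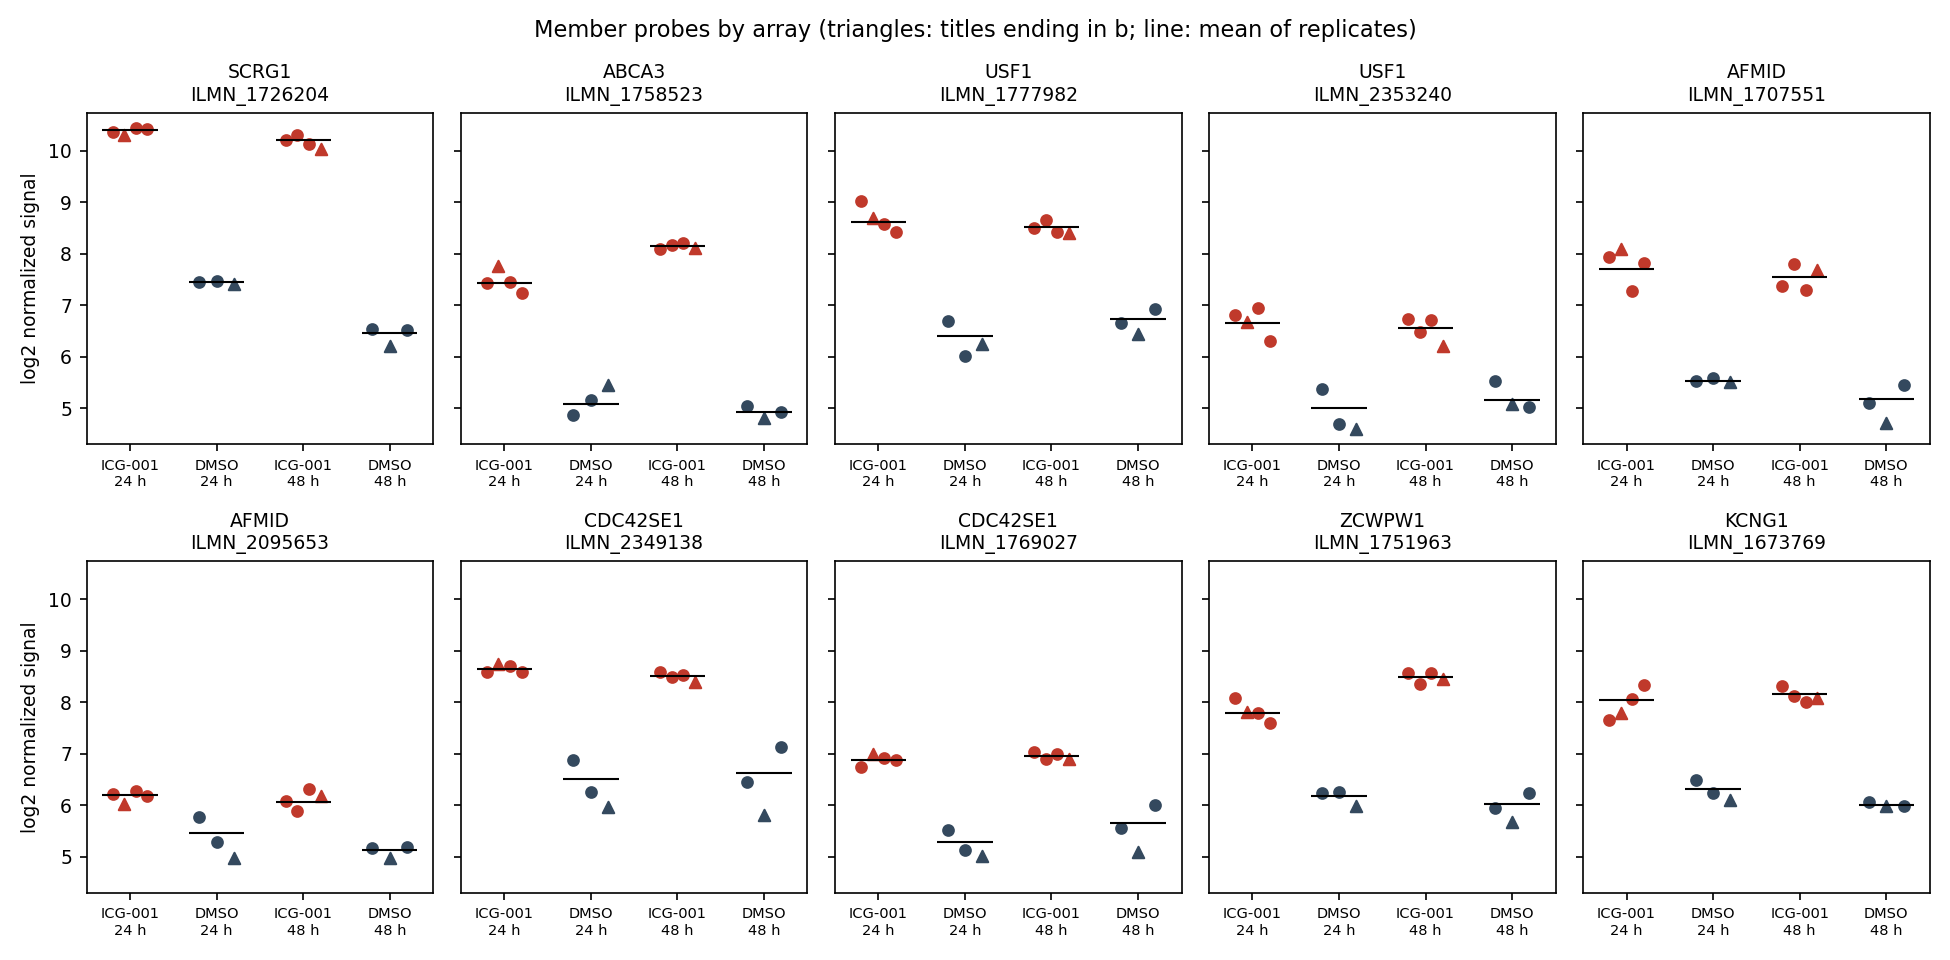
Normalized log2 signal of the 10 probes on each of the 14 arrays, with ICG-001 in red and DMSO in dark blue at 24 h and 48 h. Triangles are arrays whose titles end in b, and the line is the mean of the replicates. The 4 ICG-001 arrays lie above the 3 DMSO arrays in every panel at both times, and for SCRG1 the DMSO arrays sit about 1 log2 unit lower at 48 h than at 24 h.

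ABCA3, the lipid transporter, had signals of 273.9, 319.1, 255.9 and 217.8 with ICG-001 and 145.5, 157.9 and 127.8 with DMSO at 24 h. At 48 h it had 449.8, 361.1, 289.7 and 273.8 with ICG-001 and 148.0, 132.5 and 134.3 with DMSO. The ICG-001 arrays were all above the DMSO arrays, and the DMSO signals were at the edge of what the arrays detect. ABCA3 was detected (detection p below 0.05 against the array's negative controls) on all 8 ICG-001 arrays, but on only 2 of 3 DMSO arrays at 24 h and 0 of 3 at 48 h, where the detection p ran from 0.0558 to 0.147. Normalized, it was at 7.43 ± 0.18 (SD, n = 3) with ICG-001 and 5.08 ± 0.31 (SD, n = 2) with DMSO at 24 h (log2 change 2.35 ± 0.16 SE, 5.10-fold). At 48 h it was at 8.14 ± 0.04 (SD, n = 3) with ICG-001 and had only an upper bound in DMSO. It was thus at least 8.32-fold higher on this normalized scale. That bound sets the ICG-001 mean against the lowest signal detected on each DMSO array, or the probe's own where that is higher. It does not hold for other scales: the ratio of deposited signals was 2.35, and the authors' deposited table gave 2.27-fold. Under ICG-001 the level of ABCA3 was higher at 48 h than at 24 h by 0.71 ± 0.14 (SE) on the log2 scale.

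KCNG1, the silent channel subunit, had signals of 302.8, 324.6, 344.2 and 353.5 with ICG-001 and 190.6, 183.1 and 189.8 with DMSO at 24 h. At 48 h they were 404.5, 358.4, 322.1 and 269.4 with ICG-001 and 199.1, 179.0 and 171.4 with DMSO. The DMSO arrays lay close together and below every ICG-001 array. Normalized, KCNG1 was at 8.04 ± 0.31 (SD, n = 3) with ICG-001 and 6.32 ± 0.23 (SD, n = 2) with DMSO at 24 h, and at 8.16 ± 0.14 and 6.00 ± 0.03 at 48 h. The log2 change was 1.72 ± 0.18 (SE) at 24 h and 2.16 ± 0.18 (SE) at 48 h. KCNG1 was detected on all 6 DMSO arrays.

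AFMID has 2 probes on the array, and they differed in how far they moved. The brighter, ILMN_1707551, had signals of 350.2, 375.3, 236.8 and 276.9 with ICG-001 and 159.7, 159.5 and 146.2 with DMSO at 24 h, and 284.9, 294.6, 217.2 and 233.6 with ICG-001 and 149.8, 128.1 and 149.9 with DMSO at 48 h. Its log2 change was 2.17 ± 0.23 (SE) at 24 h and 2.37 ± 0.23 (SE) at 48 h. The other probe, ILMN_2095653, changed by 0.74 ± 0.19 (SE) at 24 h and 0.94 ± 0.19 (SE) at 48 h, which ranks 879 and 422 among the increases of all probes. Its 24 h change was 0.42 or 1.06 when 1 or the other DMSO replicate was left out. At 24 h AFMID was thus 4.50-fold higher by 1 probe and 1.67-fold higher by the other. Which transcripts each probe detects is not given in the sources used here. In DMSO both probes were close to the detection limit: ILMN_1707551 was detected on 5 of 6 arrays and ILMN_2095653 on 4 of 6.

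CDC42SE1 also has 2 probes, and both were higher with ICG-001. ILMN_2349138 had signals of 496.8, 529.8, 480.6 and 400.3 with ICG-001 and 191.6, 177.8 and 219.2 with DMSO at 24 h, and 537.9, 415.4, 365.0 and 317.8 with ICG-001 and 231.3, 170.5 and 253.8 with DMSO at 48 h. By the brighter probes its DMSO replicates were the most spread of the 7 genes, with normalized levels of 8.65 ± 0.06 and 8.51 ± 0.06 with ICG-001 (SD, n = 3) and 6.50 ± 0.55 and 6.62 ± 0.70 with DMSO (SD, n = 2) at 24 h and 48 h. The log2 change was 2.15 ± 0.27 (SE) at 24 h and 1.88 ± 0.27 (SE) at 48 h. It ran from 1.39 to 2.38 at 48 h depending on which replicate was left out. ILMN_1769027, detected on 3 of 6 DMSO arrays, changed by 1.60 ± 0.20 (SE) and 1.30 ± 0.20 (SE).

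USF1, the E-box factor, was measured by ILMN_1777982 at 638.1, 517.7, 448.6 and 370.7 with ICG-001 and 178.6, 190.5 and 204.0 with DMSO at 24 h. At 48 h the signals were 508.0, 418.9, 351.0 and 343.6 with ICG-001 and 252.6, 202.1 and 234.8 with DMSO. The groups did not overlap, and the distance between them was smaller at 48 h. The log2 change was 2.21 ± 0.20 (SE) at 24 h, 4.61-fold, and 1.79 ± 0.20 (SE) at 48 h, 3.46-fold. The second probe, ILMN_2353240, changed by 1.65 ± 0.24 (SE) and 1.39 ± 0.24 (SE), against a DMSO level that was detected on only 1 of 3 arrays at each time.

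ZCWPW1, the histone-mark reader, had signals of 379.1, 326.8, 299.1 and 251.4 with ICG-001 and 191.8, 178.1 and 175.0 with DMSO at 24 h. At 48 h they were 550.9, 428.1, 362.7 and 300.7 with ICG-001 and 190.8, 165.7 and 184.6 with DMSO. The DMSO signals were alike at both times. The mean ICG-001 signal was 314.1 at 24 h and 410.6 at 48 h, though single arrays of the 2 times overlapped. The log2 change was 1.61 ± 0.16 (SE) at 24 h, 3.04-fold, and 2.46 ± 0.16 (SE) at 48 h, 5.49-fold. Within ICG-001 the normalized level was higher at 48 h than at 24 h by 0.70 ± 0.15 (SE).

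The difference between the changes at the 2 times is described here without a test. On the log2 scale the fitted change was larger at 48 h than at 24 h by 0.85 ± 0.23 (SE) for ZCWPW1, 0.79 ± 0.18 for SCRG1, 0.44 ± 0.26 for KCNG1 and 0.20 ± 0.33 for AFMID, which was at -0.01 in the authors' deposited table. No exact difference is given for ABCA3, which was not detected in DMSO at 48 h. It was smaller at 48 h for USF1, by -0.42 ± 0.28, and for CDC42SE1, by -0.27 ± 0.39. For KCNG1, AFMID, USF1 and CDC42SE1 the difference was within 2 SE. In the authors' deposited table the difference was 0.47 for ZCWPW1, 0.23 for SCRG1, 0.17 for KCNG1, -0.18 for USF1 and -0.16 for CDC42SE1. The deposited signals of SCRG1 had ratios of 4.62 at 24 h and 4.92 at 48 h, so the size of its difference depended on the background correction. Over all tested probes, 0 passed for this difference with limma after correction, and 1118 (5.05%) had an unadjusted p below 0.05.

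**Figure D2:**
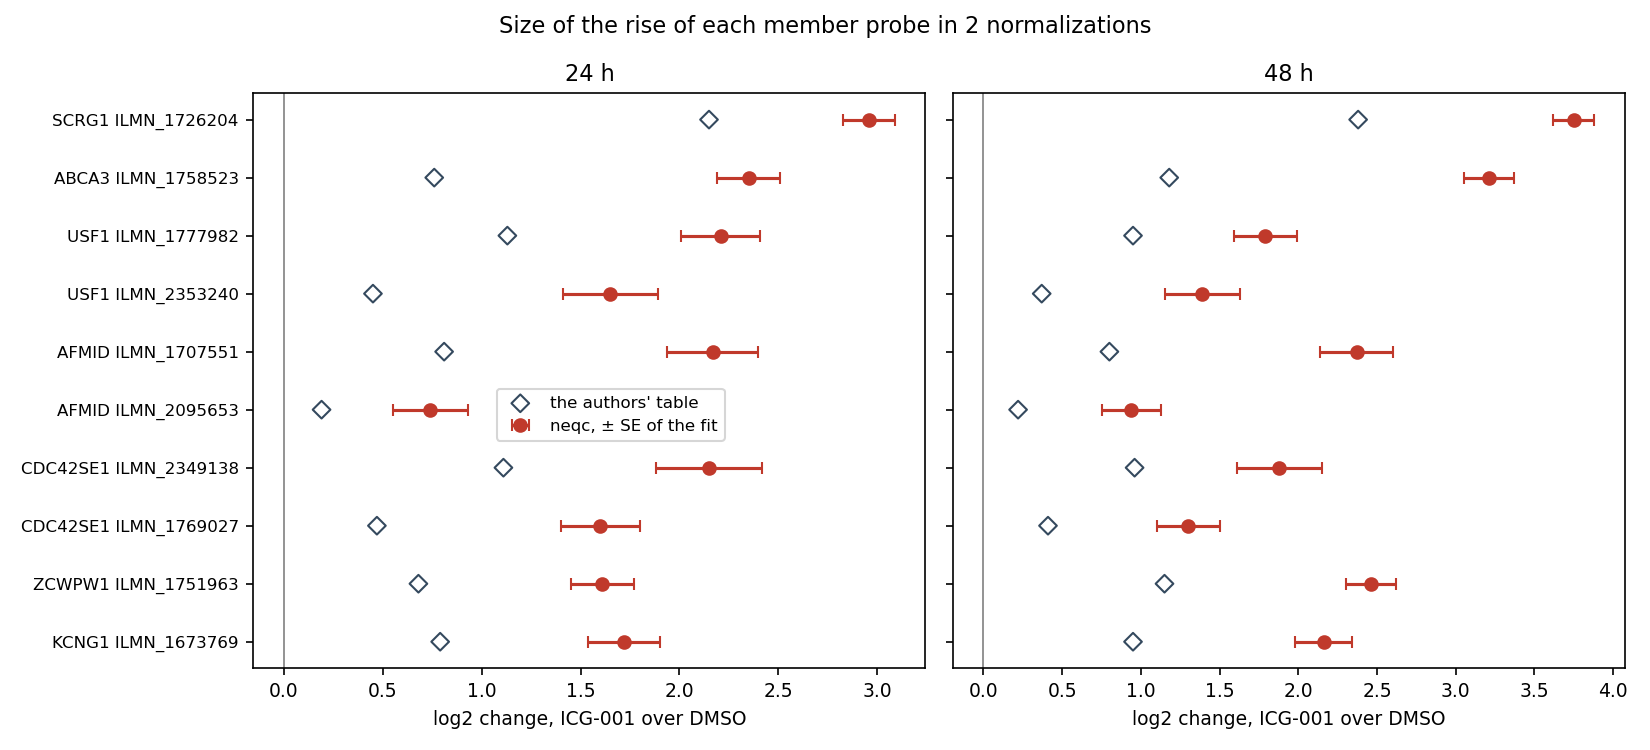
Log2 change of each of the 10 probes, ICG-001 over DMSO, at 24 h (left) and 48 h (right). Filled red circles are the values after background correction with neqc, with the SE of the fit, and open diamonds are the authors' deposited values, which are smaller for every probe (SCRG1 at 48 h: 3.75 and 2.38). The 48 h value of ABCA3 is fitted against a DMSO level that was not detected.

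The size of the change depended on the background correction, and the DMSO signals of these genes lay near the detection limit. For ABCA3 the mean deposited signal with ICG-001 was 1.84 times that with DMSO at 24 h and 2.35 times at 48 h, against 5.10-fold and at least 8.32-fold after background correction. In the authors' deposited table the log2 change of ABCA3 was 0.76 at 24 h and 1.18 at 48 h. SCRG1, farther above the limit, had signal ratios of 4.62 and 4.92 and authors' log2 changes of 2.15 and 2.38. For the other 5 genes the authors' table gave 0.68 to 1.13 at 24 h and 0.80 to 1.15 at 48 h by the brighter probe. The increases were above 0 for all 10 probes at both times under each of the 20 alternatives tried. The genes were chosen for large increases on these same arrays, so this sign was nearly set by the choice and is no support. Of all tested probes, 15097 (68.1%) were detected on every DMSO array, and of the 10 probes 5 were.

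**Figure D3:**
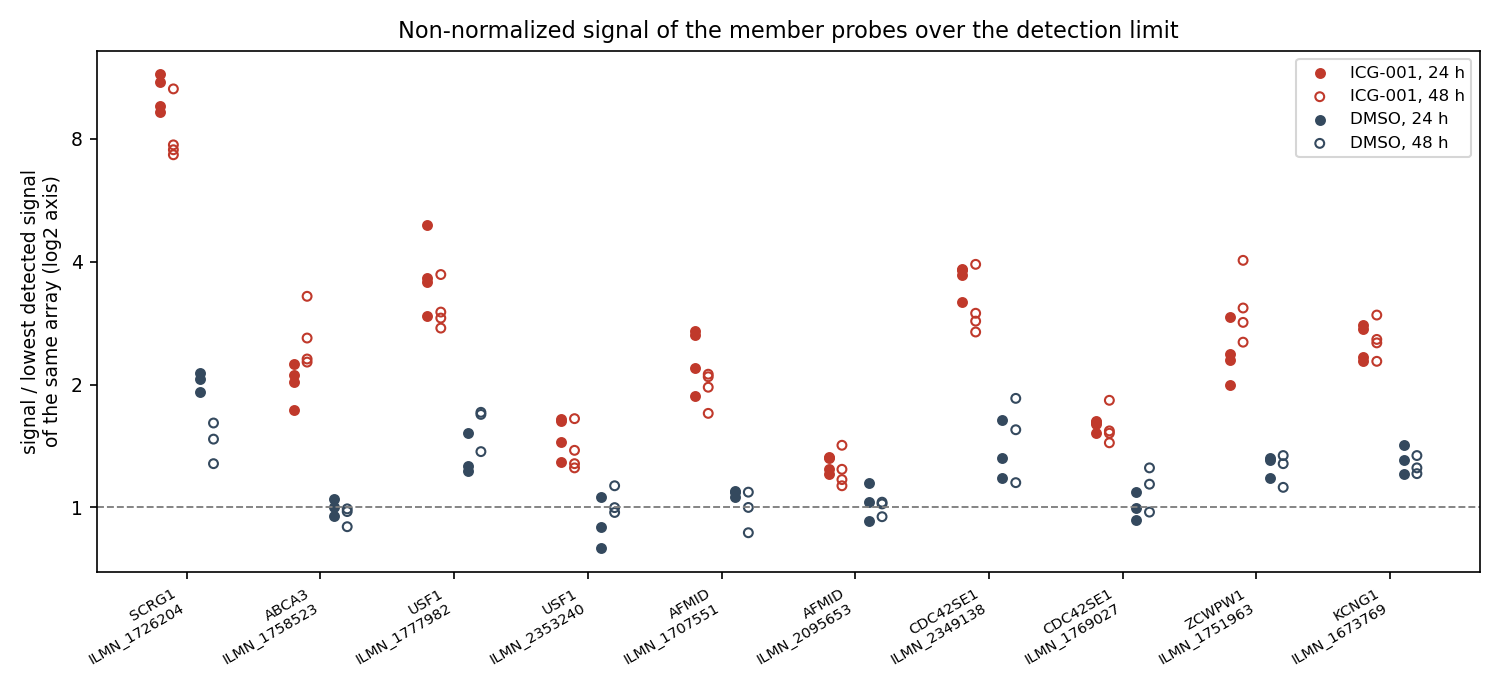
Deposited signal of each probe on each array, divided by the lowest signal detected on that array (log2 axis), with 1 marked by the dashed line. ICG-001 arrays are red and DMSO arrays dark blue, filled for 24 h and open for 48 h. The DMSO points of ABCA3, of both AFMID probes and of the second USF1 and CDC42SE1 probes straddle the line, and every ICG-001 point is above it.

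The arrays with titles ending in b detected fewer probes, 17619 to 18332 against 18365 to 20124 on the other arrays, and each group held 1 of them. Taken within the b arrays and within the other arrays, the change of SCRG1 was 2.89 and 2.96 at 24 h and 3.82 and 3.69 at 48 h. CDC42SE1 differed most between them, at 2.77 within the b arrays and 2.06 within the others at 24 h, and 2.59 and 1.75 at 48 h. Median signals per array ran from 113.1 to 139.1. Of 8 melanocyte lineage markers, 7 were on the annotated table and all 7, among them MLANA, PMEL, TYR and SOX10, were detected on all 14 arrays. Of markers of other cell types, 2 of 4 immune, 0 of 3 endothelial and 2 of 4 fibroblast ones were on the annotated table. So were 1 of 4 epithelial and 2 of 3 retinal pigment epithelium ones. Among these, DCN was detected on 0 arrays, RLBP1 on 3, CD14 on 4 and COL1A1 on 5, while CD68, CDH1 and BEST1 were detected on 14. BEST1, a chloride channel of the retinal pigment epithelium, rose (0.43 and 1.00, limma adjusted p = 0.0435 and 0.000772), and CD68, a lysosomal protein of macrophages, fell (-0.58 and -0.49, limma adjusted p = 0.0126 and 0.0242). CDH1 fell at 24 h (-0.78, limma adjusted p = 0.0453) and did not pass at 48 h (0.0535). Of the melanocyte markers SOX10 (-0.57 at both times) and RAB27A (-0.81 and -1.09) fell at both times, and the other 5 did not pass. The part of these markers in the changes of the 7 genes was not tested.

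The nearest measured genes to each of the 7 on the chromosome were not used in the choice and were tested. For each of the 7 the nearest 2 measured genes on either side were taken, 28 in all. Their gaps to it ran from 0 to 759.2 kb, so some are distant. At 24 h 3 rose and 3 fell, and at 48 h 5 rose and 2 fell, beside 8.80% of all probes that rose and 8.32% that fell at 24 h (17.1% in all), and 9.44% and 9.25% at 48 h (18.7% in all). Their median log2 change was -0.06 at 24 h and 0.14 at 48 h, and -0.015 and -0.02 over all probes. Each neighbour counts by its probe with the highest mean, while all probes include dimmer and unnamed ones. HMGB2, a neighbour of SCRG1, was at -0.06 at 24 h by the probe that counts. A second HMGB2 probe, left out of the counts, fell at 24 h (-0.69, limma adjusted p = 0.0207) and did not pass at 48 h (-0.30, 0.252). The neighbours ranged from -0.82 to 0.84 over both times. The 7 genes, chosen for large changes, lay above that range by their brighter probes, while the dimmer AFMID probe, at 0.74 and 0.94, lay inside it at 24 h. In the authors' deposited table ATP9A at 24 h, with 0.76, was above ZCWPW1, with 0.68.

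TK1, the thymidine kinase of DNA synthesis, starts head to head with AFMID, and 257 bases of their RefSeq promoter windows overlap for 1 of its start sites. TK1 fell at 24 h, to 9.98 ± 0.09 (SD, n = 3) with ICG-001 against 10.75 ± 0.10 (SD, n = 2) with DMSO (log2 change -0.76 ± 0.15 SE, limma adjusted p = 0.00681), while AFMID was higher. At 48 h TK1 did not pass (-0.44, limma adjusted p = 0.0625), and leaving out the averaged DMSO pair ended its 24 h call (limma adjusted p = 0.0502). BIRC5, the apoptosis inhibitor survivin on the other side of AFMID, rose at 48 h by 0.53 ± 0.14 (SE, limma adjusted p = 0.0228). The call did not hold with 75th percentile scaling, or when either DMSO replicate, ICG-001 replicate 1 or ICG-001 replicate 2 was left out (limma adjusted p = 0.0538 to 0.12). A second BIRC5 probe did not pass at either time (-0.59 and 0.45). MEPCE, an enzyme that caps the small RNA 7SK, starts opposite ZCWPW1 with overlapping windows and rose at 48 h by 0.84 ± 0.24 (SE, limma adjusted p = 0.032). The MEPCE call was lost with 75th percentile scaling (limma adjusted p = 0.134), with no filter (0.0701), and when the unpaired DMSO replicate (limma adjusted p = 0.287), ICG-001 replicate 1 (0.068) or the averaged ICG-001 pair (0.086) was left out. PPP1R35, a centrosome protein beyond MEPCE, fell at both times (-0.56 and -0.82, limma adjusted p = 0.0176 and 0.00262). The 24 h call of PPP1R35 was lost when the averaged DMSO pair (limma adjusted p = 0.107) or the averaged ICG-001 pair (0.06) was left out. ATP9A, a lipid flippase 573.4 kb from KCNG1, rose at both times (0.83 and 0.66, limma adjusted p = 0.00345 and 0.0085). At 48 h leaving out the averaged DMSO pair ended the call of ATP9A (limma adjusted p = 0.0741).

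Beside CDC42SE1, MLLT11 fell at both times (-0.72 and -0.75, limma adjusted p = 0.0285 and 0.0226), and its calls were lost when either DMSO replicate of that time was left out (limma adjusted p = 0.0738 to 0.147). The same held for the averaged ICG-001 pair at both times (0.0684 and 0.063) and for ICG-001 replicate 1 at 48 h (0.0578), and at 24 h also with no filter (0.0523) and with array weights (0.0527). C1orf56, which has no gap to CDC42SE1 in the annotation, did not pass (-0.22 and 0.02). CCNF, a cyclin 88.7 kb from ABCA3, rose at 48 h (0.68, limma adjusted p = 0.0162). The call of CCNF was lost without the unpaired DMSO replicate (log2 change 0.51). SAP30, a subunit of the Sin3 deacetylase complex beside SCRG1, passed at 48 h (0.58, limma adjusted p = 0.047), but not under 8 of 20 alternatives, which included leaving out any 1 of the 5 replicates of that time (0.00561 to 0.28 over all alternatives). SALL4, 759.2 kb from KCNG1, and CASTOR3P, 128.6 kb from ZCWPW1, passed at 24 h (0.58 and 0.52, limma adjusted p = 0.0285 and 0.0363). They did not pass under 8 of 19 and 10 of 20 alternatives. Over all alternatives their log2 changes ran from 0.15 to 0.80 and from 0.16 to 0.64. None of the 4 measured neighbours of USF1, namely CD84, SLAMF7, PFDN2 and NIT1, passed at either time. They lie 54.6 to 459.8 kb from USF1.

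**Figure D4:**
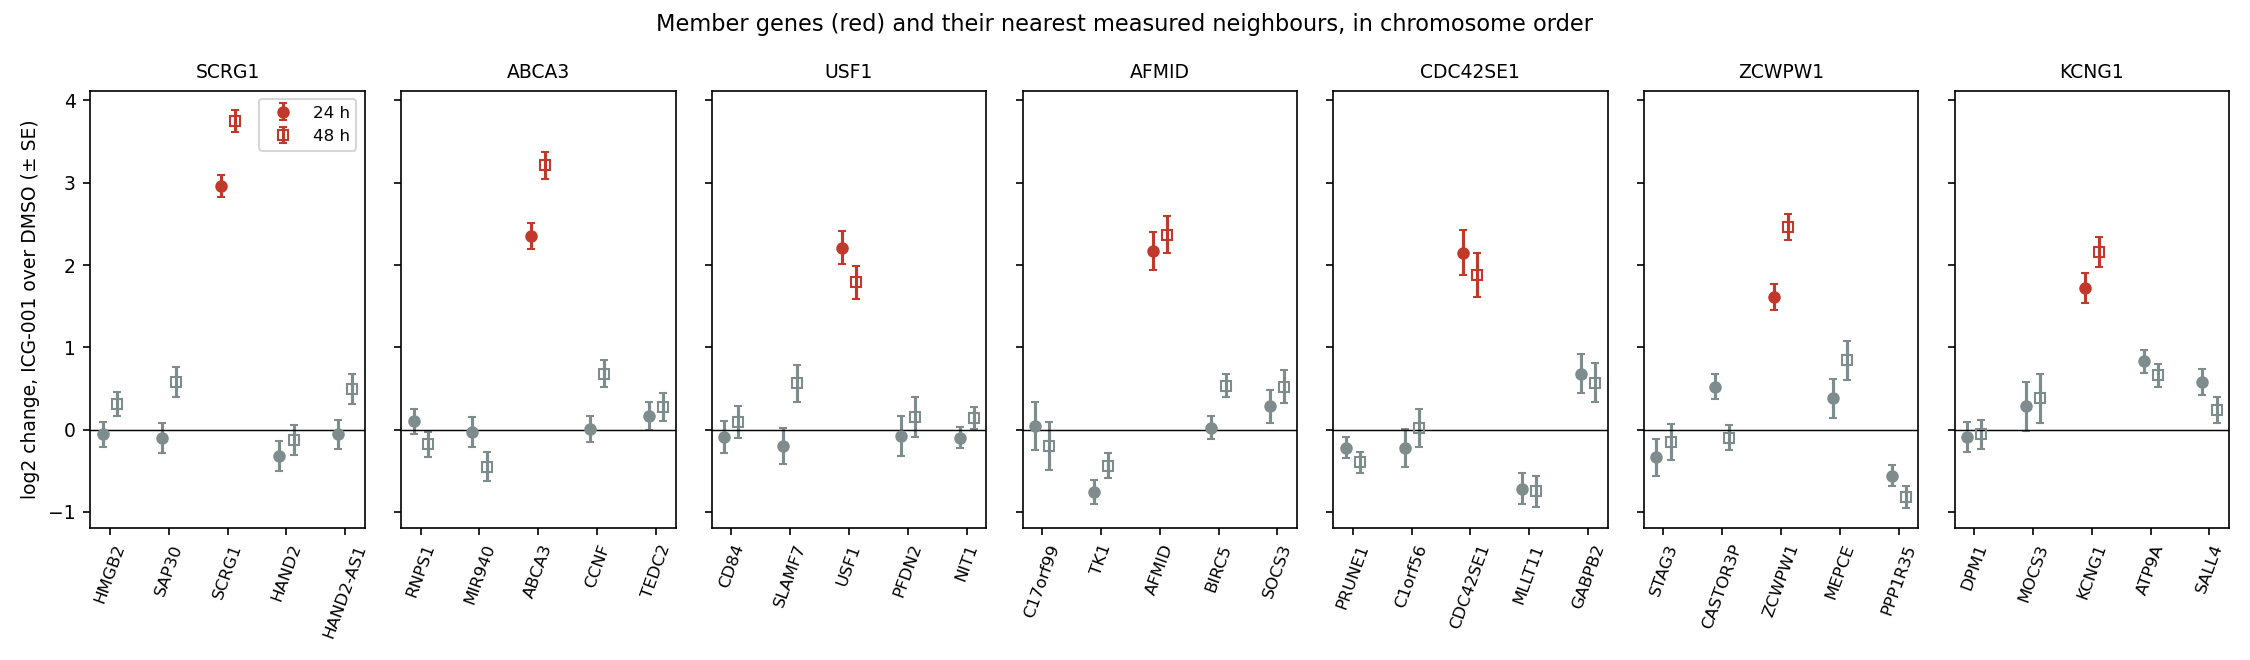
Log2 change, ICG-001 over DMSO, with the SE of the fit, of the brighter probe of each of the 7 genes (red) and the nearest 2 measured genes on each side (grey), in chromosome order, with filled circles for 24 h and open squares for 48 h. The neighbours lie between -0.82 and 0.84, while the 7 genes, chosen for large changes, lie between 1.61 and 3.75 by these probes.

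Relatives of the 7 genes were taken from lists of family members and pathway partners. Of 120 listed genes 70 were measured, and at 24 h 9 rose and 9 fell (25.7% of them), against 17.1% of all probes. At 48 h 10 rose and 10 fell (28.6%), against 18.7% of all probes. Their median log2 change was 0.06 at 24 h and 0.02 at 48 h. Each relative counts by its probe with the highest mean, while all probes include dimmer and unnamed ones. The shares are therefore of unlike sets, and the difference between them was not tested.

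Of the 5 measured ABCA transporters besides ABCA3, 0 rose and 1 fell at each time. ABCA1, which exports cholesterol, fell 2.05-fold at 48 h (log2 change -1.03 ± 0.17 SE, limma adjusted p = 0.003). ABCA2, a transporter of endosomes and lysosomes, fell at 24 h (-0.91, limma adjusted p = 0.024). That call was lost when either DMSO replicate, the averaged ICG-001 pair or ICG-001 replicate 4 was left out (limma adjusted p = 0.0519 to 0.135), with no filter (0.0524) and with array weights (0.0603). Of 4 measured Kv2 channels and silent subunits besides KCNG1, 0 passed at either time, with changes from -0.41 to 0.15. Among them KCNG3 was detected on only 3 arrays, and KCNG4 and KCNV2 on 9 each.

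Among the 14 measured E-box factors of the basic helix-loop-helix leucine zipper class besides USF1, 2 rose and 2 fell at 24 h. At 48 h 2 rose and 3 fell. USF2, the partner of USF1, fell at 24 h, to 8.45 ± 0.20 (SD, n = 3) with ICG-001 against 9.36 ± 0.00 (SD, n = 2) with DMSO (log2 change -0.91 ± 0.16 SE, limma adjusted p = 0.00442). At 48 h USF2 did not pass (-0.45, limma adjusted p = 0.0742). A second USF2 probe fell at 24 h (-1.21) and did not pass at 48 h (-0.43, limma adjusted p = 0.285), and the remaining probe passed at neither time (-0.60 and -0.52). MYC, a growth-promoting factor that binds the same E-box, rose at 24 h (1.06, limma adjusted p = 0.00752), with a log2 change between 0.63 and 1.49 depending on the DMSO replicate left out. At 48 h that probe did not pass (0.52, limma adjusted p = 0.112), while a second MYC probe passed at both times (1.21 and 0.81, limma adjusted p = 0.00172 and 0.00996). MXD3, an antagonist of MYC, fell at both times (-1.04 and -0.88, limma adjusted p = 0.00185 and 0.00325), and in the authors' table its changes were -0.35 and -0.27. MXD4, of the same class, rose at both times (0.79 and 0.55, limma adjusted p = 0.00311 and 0.015), and its 48 h call was lost when either DMSO replicate or ICG-001 replicate 1 was left out (limma adjusted p = 0.0523 to 0.106) and with 75th percentile scaling (0.0645).

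Of 12 measured enzymes of tryptophan, kynurenine and NAD metabolism besides AFMID, 3 rose and 1 fell at both times. AADAT, which turns kynurenine into kynurenic acid, rose at both times (1.01 and 0.77, limma adjusted p = 0.00148 and 0.0041), while its other probe did not pass (0.08 and -0.06). QPRT, which makes the precursor of NAD from quinolinic acid, fell at both times (-0.84 and -1.01, limma adjusted p = 0.00345 and 0.00121). NAPRT, which makes that precursor from nicotinic acid, rose at both times (0.81 and 0.72, limma adjusted p = 0.00366 and 0.00562), and its 48 h call was lost when the unpaired DMSO replicate was left out (limma adjusted p = 0.0656) and with 75th percentile scaling (0.0589). NADSYN1, the last enzyme of both routes to NAD, rose as well (0.55 and 0.65, limma adjusted p = 0.0284 and 0.0125). At 24 h the NADSYN1 call was lost when the averaged DMSO pair or any of the 3 ICG-001 replicates was left out (limma adjusted p = 0.0518 to 0.196), and at 48 h when either DMSO replicate was (0.0603 and 0.0883).

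Of 16 measured genes of CDC42 and its effectors besides CDC42SE1, 4 rose and 3 fell at each time. ARHGDIA fell at both times (-0.73 and -0.86, limma adjusted p = 0.00743 and 0.00297). CDC42SE2, the closest relative of CDC42SE1, rose at both times, to 8.32 ± 0.30 and 8.30 ± 0.19 with ICG-001 (SD, n = 3), against 7.37 ± 0.23 and 7.44 ± 0.11 with DMSO (SD, n = 2). Its log2 changes were 0.95 and 0.87 (limma adjusted p = 0.00821 and 0.0114), and the calls were lost when the averaged DMSO pair at 24 h (0.0694) or either DMSO replicate at 48 h (0.0518 and 0.0857) was left out. Its second probe did not pass (-0.09 and -0.29). CDC42EP1, an effector that shapes actin, rose at both times (1.06 and 1.30, limma adjusted p = 0.00754 and 0.00238), by 0.63 or 1.48 at 24 h depending on the DMSO replicate left out. Its second probe was at -0.20 at 24 h, which did not pass, and rose by 0.47 at 48 h (limma adjusted p = 0.0354). CDC42EP5 fell at 48 h (-0.87, limma adjusted p = 0.0106, and 0.108 without the unpaired DMSO replicate).

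Of 12 measured genes of meiotic recombination and CW-domain readers besides ZCWPW1, 0 passed at 24 h and 1 rose at 48 h, MORC4 (0.81, limma adjusted p = 0.0173, and 0.0606, 0.122 and 0.052 without the averaged DMSO pair, the unpaired DMSO replicate and ICG-001 replicate 1). PRDM9, the histone methyltransferase whose marks ZCWPW1 reads in mouse meiosis, was at -0.02 at 24 h and 0.14 at 48 h and did not pass. Its probe was detected on only 7 arrays, so a change of PRDM9 could hardly be seen. Of 7 measured genes of cartilage and mesenchymal differentiation besides SCRG1, 0 rose and 2 fell at both times. MATN2 did not pass by the probe that counts here (0.47 and 0.44, limma adjusted p = 0.0585 and 0.0663). The other MATN2 probe passed at both times, with an increase at 24 h. COL9A1, a collagen of cartilage, fell 1.91-fold and 2.22-fold (limma adjusted p = 0.0108 and 0.00343), and leaving out the averaged DMSO pair ended its 24 h call (limma adjusted p = 0.0564). In the authors' table the log2 change of COL9A1 was -0.26 and -0.32. SPP1, the matrix protein osteopontin, fell 2.61-fold and 2.52-fold (limma adjusted p = 0.00108 and 0.000965).

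The ATF4 response is given for comparison. Of 35 measured genes of that response, a list drawn up with earlier results of these arrays known, 28 rose and 0 fell at 24 h, beside 8.80% of all probes that rose, and 31 rose and 0 fell at 48 h, beside 9.44%, with median log2 changes of 0.93 and 1.20 and highest changes of 3.11 and 3.63. ASNS led with 8.64-fold at 24 h and 12.4-fold at 48 h. The change was larger at 48 h than at 24 h for 26 of these 35 genes, by a median of 0.27. Here too each gene counts by 1 probe, unlike the shares over all probes.

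The probes whose pattern over the 10 replicates was most like each of the 7 genes are a description, since ICG-001 and DMSO replicates lie apart for all of them and between 729 and 883 probes reached a Pearson correlation of 0.9 with each gene. For SCRG1 they were LIMCH1 (r = 0.994), RFTN1 and XYLT1, and for ABCA3 DDIT4 (r = 0.992), RPS3A and SLC7A1. For USF1 they were GOLIM4 (r = 0.993), KBTBD11 and ADAP1, and for CDC42SE1 PDZRN3 (r = 0.993), WTAP and UBAC2. AFMID was most like N4BP2L2 (r = 0.988), TMEM43 and RFTN1, and ZCWPW1 most like DDIT4 (r = 0.993), TSC22D3 and FGF9. KCNG1 was most like KLF4 (r = 0.994), UBE4A and UTP25. DDIT4 and SLC7A1 are on the ATF4 list. The 7 genes correlated with each other at r = 0.913 to 0.987 over the 10 replicates, and with ASNS at 0.951 to 0.986.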

How the data were processed

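Total RNA of 14 samples was amplified, biotin-labelled and hybridised to Illumina bead arrays, per the labels' protocols. The deposited table gives an intensity, the mean signal of each of 47323 probes on each array, and, per the file headers, a detection p-value beside it. The authors' second deposited table holds 22579 probes on a log2-like scale; the submitters' processing notes name lumi, with settings not given in the sources used here. Here neqc of limma 3.58.1 (R 4.3.3) corrected the background from the detection p-values, added 16, quantile normalized and took log2. A probe was kept if 3 or more arrays had a detection p-value below 0.05 (22158 probes). Arrays sharing a title number were averaged, leaving 10 replicates. A means model of the 4 groups was fitted to each probe with lmFit and eBayes, with Benjamini-Hochberg correction over all 22158 probes, a threshold of 0.05 and two-sided tests. "Rose" and "fell" are used of genes past it. The procedure was tested on simulated data.

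The 7 genes and all gene lists were chosen with earlier results of these data known. Named are the 7 genes, their nearest 2 measured genes on each side, up to 4 genes with the smallest p of each list and the 3 most alike probes. MATN2 is named for its second probe. Neighbours and relatives are represented by their probe with the highest mean. The RefSeq table gave names, order and promoters. The number of arrays limits the precision. One result is not reported here.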

Additional observations from a re-analysis of the deposited data

How the results depend on the processing

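The log2 changes of the 10 probes stayed above 0 under all 20 alternatives, a sign nearly set by the choice of the genes. They ran from 2.15 to 2.99 for SCRG1 at 24 h and from 2.38 to 3.82 at 48 h. For ABCA3 they ran from 0.76 to 2.57 and from 1.18 to 3.23, the latter against a DMSO level that was not detected. The lowest values came from the authors' table. Of all probes, 3794 passed at 24 h, and 1885 to 3521 when 1 replicate was left out, the lowest without the averaged DMSO pair of 24 h (2479 without the averaged ICG-001 pair). At 48 h 4140 passed, and 1643 to 4644 with 1 left out (1643 without the averaged DMSO pair, 1844 without the unpaired DMSO replicate, 2564 without ICG-001 replicate 1). With the arrays ending in b as a term, chosen after seeing the data, 6726 and 6704 passed. For DMSO over time 2 passed, 7 with an offset of 50, with 75th percentile scaling and in the authors' table, 5 with detection below 0.01, 16 with every array, 15 with the title number as a random block, 62 with the b term, 0 without a filter, without the b arrays and with array weights, and 0 to 82 with 1 replicate left out (82 without the unpaired DMSO replicate of 24 h). Of the 70 relatives 18 passed at 24 h and 11 to 18 with 1 left out, and at 48 h 20 and 11 to 22; the lowest were without a DMSO replicate. Of the 28 neighbours 6 passed at 24 h and 3 to 7 with 1 left out, and at 48 h 7, 11 with every array, 13 with the b term and 3 to 8 with 1 left out. The lowest were without the averaged DMSO or ICG-001 pair of 24 h, and without either DMSO replicate or ICG-001 replicate 1 of 48 h (4 without the averaged ICG-001 pair). No paired analysis was possible because no title number is shared between groups. Within groups of 4 arrays, 0 of 20 sets of values had a value far from the others. Leaving out a DMSO replicate leaves 1 in its group, which is then assumed to vary like the other groups. The 2 DMSO replicates a time and DMSO signals near the detection limit restrict the precision of each change.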
